A study of Homo sapiens with 105 samples.

Results

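The 9 genes CLDN1, CLDN2, CLDN3, CLDN4, CLDN7, OCLN, TJP1, TJP3 and CGN, which encode claudins, occludin and the cytoplasmic scaffolds of the tight junction, were chosen by name out of the 63241 genes of the table, and all 9 passed the filter on low counts. Earlier results of these data were known at the choice, so a share of members set beside that of all genes is not an independent test. The 9 genes were followed in Caco-2 cells, a human colorectal adenocarcinoma line that grows as an epithelial sheet, in all 28 groups of treatment and time. Cells were seeded 24 h before treatment and harvested 10, 24 or 48 h after it, so the cultures were young. Total RNA depleted of ribosomal RNA was sequenced, with raw counts of 632659 to 8558755 per library and a median of 4982349. Each value is a bulk level, in which fewer cells of a type and less RNA per cell cannot be told apart.

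Tight junctions seal the space between neighbouring epithelial cells near their apical side. Claudins span the membrane and join into strands that block or pass ions, and occludin runs along the same strands. The scaffolds TJP1, TJP3 and CGN lie under the membrane and tie the strands to actin. In gut epithelium CLDN1, CLDN3, CLDN4 and CLDN7 are mostly counted among the sealing claudins, whereas CLDN2 forms a pore for cations and water.

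Of the cells that received nothing by transfection, 1 group was given PBS, and 3 were given membrane vesicles in the medium. These were membrane vesicles (MVs) of Lacticaseibacillus casei DSM 20011 (LcMV, 1.5e11 particles), MVs of Enterococcus faecalis DSM 20478 (EfMV, 7.5e9 particles) and, from Proteus mirabilis DSM 4479, outer membrane vesicles (OMVs) (PmOMV, 6.0e9 particles). The LPSinc cells were given P. mirabilis LPS in the medium at 0.2 units. All other cells were transfected with Lipofectamine, which carried vesicle RNA (LcRNA at 100 ng, EfRNA at 5 ng, PmRNA at 2 ng), the same amounts of a non-targeting siRNA (ANC100, ANC5, ANC2) or LPS at 1 unit (LPStrans). The unit of LPS is ng per µl in the labels and ng per ml in the study's methods, so no LPS dose is read from these data. All groups were harvested at 10 and 24 h, and at 48 h only PBS, LcMV, ANC100 and LcRNA were. The particle numbers differed between species, so comparisons of species set treatments side by side as given and not at equal doses.

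The 39 libraries of lanes 2 to 4 of flow cell 1 were set aside, since an earlier analysis of these data had found many of them near classes of time and replicate number other than their own. This left 66 libraries, with 2 libraries in 20 groups, 3 in 6 groups and 4 in 2 groups. Most calls below were lost when all libraries entered the fit, and those values are given in the paragraphs of the results. Levels are counts per 1000000 counts (CPM) after TMM scaling, and levels of different genes are compared only as CPM per kb of exon. Epithelial markers were high in every library, where the summed level of 9 of them (EPCAM, KRT8, VIL1, CDX2 and others) was 4668 to 9505 CPM. Of markers of other cell types, 6 of 6 immune, 6 of 6 fibroblast and 4 of 5 endothelial genes had counts, with KDR at 0. Their summed levels were 9.10 to 212 CPM (immune), 35.0 to 96.6 CPM (fibroblast) and 3.95 to 13.2 CPM (endothelial). The defining markers PTPRC (immune) and COL1A2 (fibroblast) had 2 counts each in all 66 libraries together, whereas LYZ reached 207 CPM, COL1A1 66.5 CPM, PDGFRA 44.2 CPM, LUM 11.6 CPM and PECAM1 9.99 CPM.

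The promoters of 4 members are shown, picked after their levels were seen. CLDN3, TJP3 and CGN were higher at 24 h than at 10 h, while CLDN2 was lower. Each sequence is the 250 bases before a RefSeq start site (GRCh38.p14), read along the strand of the gene, and capitals mark the GC box GGGCGG on either strand. CLDN3 lies on the minus strand with its promoter at chr7:73770271-73770520, CGN on the plus strand at chr1:151511137-151511386, TJP3 on the plus strand at chr19:3708134-3708383 and CLDN2 on the plus strand at chrX:106899914-106900163.
CLDN3: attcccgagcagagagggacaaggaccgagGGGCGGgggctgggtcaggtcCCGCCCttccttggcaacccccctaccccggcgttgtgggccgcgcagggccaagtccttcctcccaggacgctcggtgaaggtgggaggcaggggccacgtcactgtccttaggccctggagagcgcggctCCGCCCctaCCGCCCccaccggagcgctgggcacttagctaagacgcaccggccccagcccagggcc
CGN: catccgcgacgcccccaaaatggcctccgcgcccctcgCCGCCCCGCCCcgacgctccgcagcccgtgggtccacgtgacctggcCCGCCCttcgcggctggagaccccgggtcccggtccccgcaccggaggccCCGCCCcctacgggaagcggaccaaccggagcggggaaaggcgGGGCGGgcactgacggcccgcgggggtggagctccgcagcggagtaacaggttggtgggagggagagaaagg
TJP3: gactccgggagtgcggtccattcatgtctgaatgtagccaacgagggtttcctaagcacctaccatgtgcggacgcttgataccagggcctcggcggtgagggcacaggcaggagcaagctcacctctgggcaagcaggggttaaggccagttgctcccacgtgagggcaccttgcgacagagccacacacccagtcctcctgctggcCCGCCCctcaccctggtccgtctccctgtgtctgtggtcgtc
CLDN2: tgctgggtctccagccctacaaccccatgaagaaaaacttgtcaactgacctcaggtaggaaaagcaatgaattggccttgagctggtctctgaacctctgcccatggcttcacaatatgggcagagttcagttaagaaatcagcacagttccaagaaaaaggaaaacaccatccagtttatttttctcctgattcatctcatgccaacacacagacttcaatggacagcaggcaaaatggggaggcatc
The GC box occurred 4 times in the CLDN3 window, 5 times in that of CGN, 1 time in that of TJP3 and 0 times in that of CLDN2. Among 35116 promoter windows of this length, 42.6% held it. GC made up 71.6%, 76.0%, 62.8% and 46% of the 4 windows in the same order. The E-box CACCTG (in 17.5% of all windows) and the CDX-type letters TTTATG (in 9.64%) were in none of the 4. TJP3 and CLDN2 each have a second RefSeq start site, and the second TJP3 window held 1 E-box. The other members did not follow the same order. CLDN7, which also fell, had 0 and 1 GC boxes in its 2 windows, and 4 E-boxes in the second. OCLN, which rose, had 1 and 0 GC boxes. CLDN1 had 2, CLDN4 had 1 and the 4 windows of TJP1 had 0 to 3. These matches describe letters in the windows and do not show a bound site.

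Per kb of all annotated exons of a gene merged, CLDN1 was the highest of the 5 claudins and CLDN2 the lowest. The place of CLDN4 depends on this choice of length. Its merged exons sum to 4.699 kb, but its RefSeq start window (chr7:73830746-73830995) lies well inside the span of the gene given below. A shorter transcript length would give CLDN4 a higher level per kb, and the order of CLDN1 and CLDN4 could then differ. Over the 66 libraries CLDN1 (ENSG00000163347.6, chr3:190305707-190322446) stood at 66.7 ± 20.3 CPM per kb (SD, n = 66). CLDN4 (ENSG00000189143.10, chr7:73799542-73832690) followed at 35.4 ± 3.35, CLDN7 (ENSG00000181885.18, chr17:7259903-7263983) at 25.4 ± 4.03, CLDN3 (ENSG00000165215.6, chr7:73768997-73770270, 1 exon) at 18.5 ± 7.46 and CLDN2 (ENSG00000165376.12, chrX:106900164-106930861) at 2.87 ± 1.37 CPM per kb. Occludin (OCLN, ENSG00000197822.12, chr5:69492292-69558104) stood at 11.3 ± 1.20 CPM per kb. The scaffold CGN (cingulin, ENSG00000143375.15, chr1:151510510-151538692) stood at 25.0 ± 4.34, TJP1 (ZO-1, ENSG00000104067.17, chr15:29699367-29968915) at 23.8 ± 2.74 and TJP3 (ZO-3, ENSG00000105289.15, chr19:3708362-3750813) at 14.1 ± 5.35 CPM per kb. The levels of CLDN7, CGN and TJP1 lay within 1 SD of each other. Coordinates are those of GENCODE v44 on GRCh38. Some exon bases are shared with other genes: 9.99% of those of CLDN2 with the antisense gene RIPPLY1, 10.8% of those of CLDN7 with an unnamed gene on the same strand and 1.52% with ELP5, and 1.06% of those of TJP3 with APBA3. No strand setting is stated for the counting, so reads of such bases cannot be told apart, and OCLN reads may be split with its pseudogene copy.

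The first question of the study was which genes differ between cells given vesicles or vesicle RNA and their controls. At 10 h the transcripts of CLDN3, a sealing claudin, were lower after P. mirabilis OMVs than after PBS or LPS. The level of TJP3, a scaffold that binds claudins and occludin, was lower after these OMVs than after LPS or E. faecalis MVs. Those 2 groups had the highest TJP3 means at 10 h, and the difference from PBS did not pass. No other member passed the test in any of the 22 comparisons of a treatment with its control or with LPS, nor in the 6 comparisons between species. At 24 and 48 h no member passed a treatment comparison.

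CLDN3 at 10 h was at 18.5 and 19.2 CPM in the 2 PBS libraries (replicates 2 and 3) and at 20.4 and 19.5 CPM in the 2 LPSinc libraries. The 3 PmOMV libraries stood at 10.2, 11.4 and 13.4 CPM. All 3 lay below every PBS and LPSinc library, and the groups did not overlap. How many of all genes separate groups this small in the same way is not given here. The level fell by 0.74 ± 0.18 on the log2 scale against PBS, a fold of 0.597 (log2 fold change ± SE, n = 3 and 2, edgeR adjusted p = 0.0202). In that comparison 1.09% of the 19233 genes tested passed, against 1 of the 9 members (11.1%), which were chosen with earlier results known. Against LPSinc CLDN3 fell by 0.81 ± 0.17 (adjusted p = 0.00121).

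TJP3 at 10 h was at 30.7, 28.9 and 30.8 CPM in the PmOMV libraries. The LPSinc libraries stood at 45.8 and 42.1 CPM, the EfMV libraries at 46.4 and 37.4 CPM and the PBS libraries at 37.4 and 38.3 CPM. All 3 PmOMV libraries lay below every library of these 3 groups, and the share of all genes that do so is not given here. TJP3 fell by 0.54 ± 0.10 against LPSinc (adjusted p = 0.000352) and by 0.48 ± 0.11 against EfMV (adjusted p = 0.00871). Against PBS its log2 fold change was -0.37 ± 0.11 (adjusted p = 0.0902), which did not pass. LPSinc (mean 43.9 CPM) and EfMV (41.9 CPM) were the 2 highest of the 12 groups at 10 h and PmOMV the lowest. PBS had a mean of 37.9 CPM and LcMV, next above PmOMV, 33.5 CPM. Among all genes tested, 3.15% passed in PmOMV against LPSinc, where 2 of 9 members did, and 0.879% in PmOMV against EfMV, where 1 of 9 did. The PmOMV libraries are the same ones in these comparisons.

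The remaining members moved less under the same OMVs at 10 h. CGN, which links the junction to the actin cytoskeleton, had log2 fold changes of -0.18 against PBS, -0.21 against LPSinc (adjusted p = 0.167) and -0.24 against EfMV. CLDN4 had -0.20 ± 0.07 against LPSinc (adjusted p = 0.139). None of these passed. The median log2 fold change of the 9 members was -0.10 against PBS and -0.11 against LPSinc, and that of all genes tested was 0.0013 and -0.00065.

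CLDN3 levels after L. casei MVs overlapped those after the OMVs, but their difference from PBS did not pass the test. The 3 LcMV libraries at 10 h stood at 9.02, 11.6 and 13.0 CPM, all below both PBS libraries, with no share of all genes given for this. The log2 fold change against PBS was -0.79 ± 0.19 (adjusted p = 0.0896). In that comparison 0.0468% of all genes passed. DESeq2 gave an adjusted p of 0.0494 for it, and edgeR with the replicate block set within each time gave 0.00401. EfMV libraries, at 17.7 and 17.0 CPM, were near PBS. The difference between PmOMV and EfMV in CLDN3 was -0.61 ± 0.18 (adjusted p = 0.0888).

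**Figure D1:**
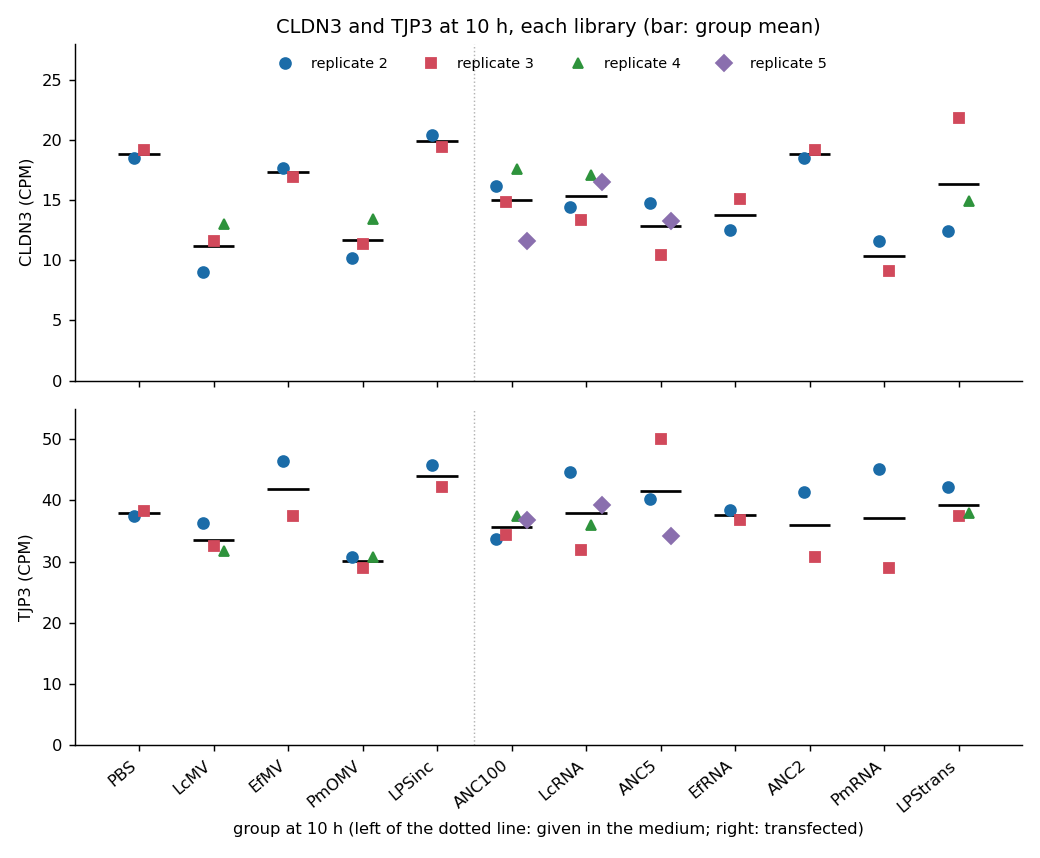
CLDN3 (top) and TJP3 (bottom) in CPM on linear axes in each library harvested at 10 h, by group, with the symbol giving the replicate number and the bar the group mean. The PmOMV libraries lie at 10.2 to 13.4 CPM for CLDN3 and 28.9 to 30.8 CPM for TJP3, below the PBS and LPSinc libraries of the same panel.

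The transfected groups at 10 h spread more widely in CLDN3. ANC2, the siRNA control of PmRNA, stood at 18.5 and 19.2 CPM and PmRNA at 11.6 and 9.15 CPM, but 6 counts lay behind the last of these. The log2 fold change was -0.75 ± 0.24 (adjusted p = 0.999). ANC5 ranged from 10.5 to 14.8 CPM, ANC100 from 11.6 to 17.6 CPM and LPStrans from 12.4 to 21.8 CPM, so the PmRNA levels lay at the low end of the transfected groups or below it.

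These CLDN3 and TJP3 results rested on few libraries. CLDN3 in PmOMV against PBS passed in 2 of the 5 fits that left out 1 library of these groups, with log2 fold changes of -0.82 to -0.66, and did not without PmOMV replicate 2, PmOMV replicate 3 or PBS replicate 3. TJP3 in PmOMV against EfMV passed in 2 of 5, and did not without EfMV replicate 2, EfMV replicate 3 or PmOMV replicate 2. Against LPSinc, CLDN3 and TJP3 passed in 5 of 5. With all libraries, those set aside included, no treatment comparison was passed by a member. The log2 fold changes of CLDN3 were then -0.59 ± 0.33 against PBS (adjusted p = 0.96) and -0.21 ± 0.33 against LPSinc, and those of TJP3 -0.24 ± 0.27 against LPSinc and -0.55 ± 0.27 against EfMV. In the set-aside libraries at 10 h CLDN3 stood at 26.6 and 25.1 CPM in PBS, 11.4 and 17.1 CPM in LPSinc and 25.9 CPM in PmOMV. COL1A1, a collagen gene listed as a fibroblast marker, was lower too in PmOMV against LPSinc (-0.67 ± 0.13, adjusted p = 0.000519) and against EfMV (-0.59 ± 0.14, adjusted p = 0.015), while the summed fibroblast markers of these groups overlapped (43.3 to 70.4 CPM). Its part in these results was not tested.

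At 24 h the log2 fold change of CLDN3 in PmOMV against PBS was 0.11. In that comparison 0 of 9 members and 0.109% of all genes passed, and 1 member had an unadjusted p under 0.05. The effect of PmOMV on CLDN3 at 24 h minus that at 10 h was 0.86 ± 0.24 (adjusted p = 0.371), so a difference between the times was not shown.

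At 48 h the 2 LcMV libraries had CLDN2 at 5.34 and 11.0 CPM (replicates 2 and 3), and the 2 PBS libraries at 3.15 and 2.33 CPM (replicates 2 and 5). These are 13 to 65 counts. The log2 fold change of CLDN2 was 1.40 ± 0.49 (adjusted p = 0.12 in edgeR and 0.0363 in DESeq2), and that of CLDN7 was 0.39 ± 0.15. Neither passed in the edgeR fit, where 2.7% of all genes did. PBS at 48 h had no used library of replicate 3, in which CLDN2 was higher than in replicate 2 at 48 h in each of the 3 groups that hold both. Within replicate 2 alone the levels were 5.34 against 3.15 CPM, and with the replicate block set within each time the log2 fold change of CLDN2 was 0.70 ± 0.44 (adjusted p = 0.549). With all libraries it was 0.48 ± 0.46 (adjusted p = 0.998).

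Across the 63 tests of a member in vesicles against PBS, 1 passed and 9 had an unadjusted p under 0.05; over all genes 0.564% of such tests passed. Vesicle RNA against siRNA gave 0 of 63 in edgeR, with 3 at an unadjusted p under 0.05 and 0% of all genes. LPS against its controls gave 0 of 36, with 0 at an unadjusted p under 0.05 and 0% of all genes. PmOMV or PmRNA against LPS gave 2 of 36 (0.825% of all genes) and vesicles of different species 1 of 54 (0.243%). The siRNA transfections against PBS gave 0 of 27, with 2 at an unadjusted p under 0.05 and 0.0832% of all genes. Differences of effects between vesicles and their RNA or between times gave 0 of 99, with 8 at an unadjusted p under 0.05 and 0.034% of all genes. The smallest adjusted p of a member in these differences was 0.307.

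**Figure D2:**
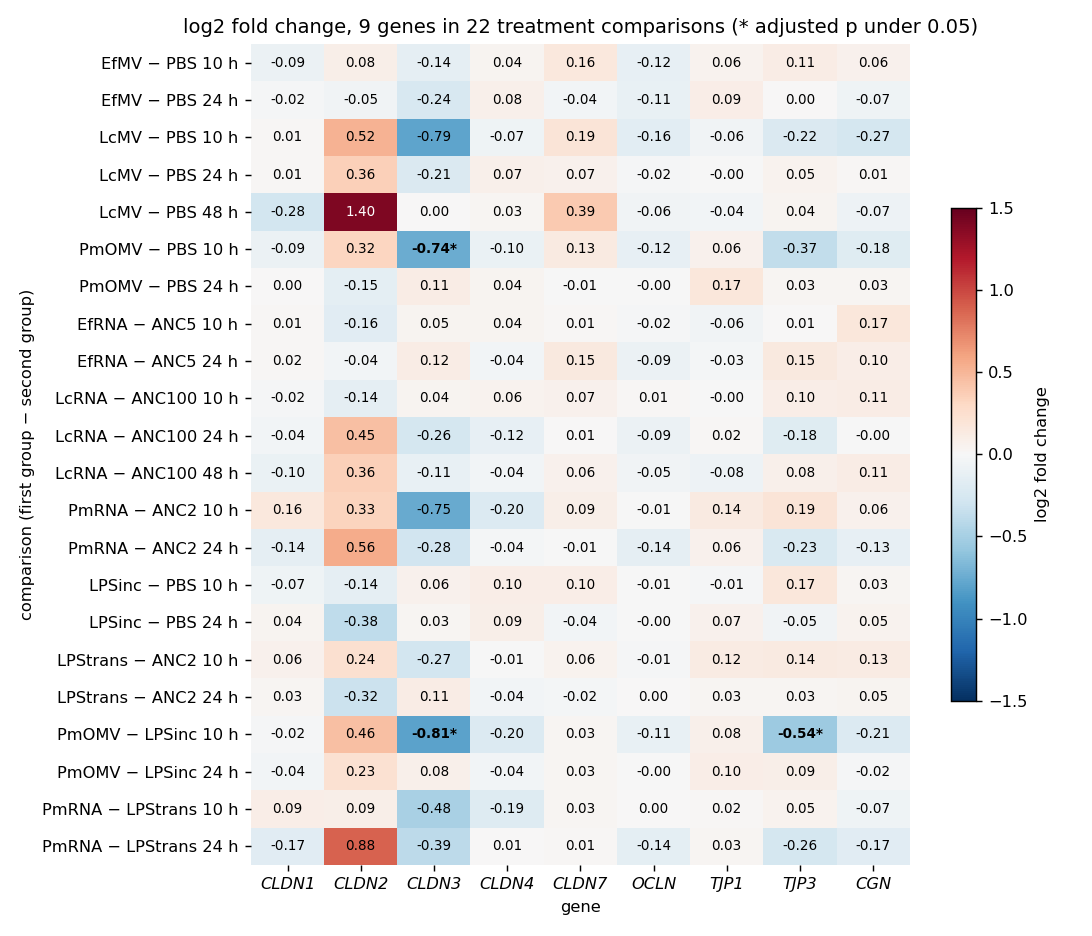
Log2 fold change (colour and number) of the 9 genes (columns) in the 22 treatment comparisons (rows, first group minus second group), with an asterisk where the edgeR adjusted p was under 0.05. The 3 marked cells are CLDN3 and TJP3 in PmOMV at 10 h, and CLDN2 in LcMV at 48 h has the largest unmarked value, 1.40.

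Some members hardly varied with treatment. Over the 22 comparisons the log2 fold changes of OCLN ran from -0.16 to 0.01 and those of TJP1 from -0.08 to 0.17. CLDN4 ran from -0.20 to 0.10, CLDN1 from -0.28 to 0.16 and CGN from -0.27 to 0.17. The SE of a single comparison was 0.05 to 0.09 for OCLN and 0.23 to 0.49 for CLDN2, so CLDN2 was measured less closely. Even its value of 1.40 ± 0.49 in LcMV against PBS at 48 h did not pass in edgeR.

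In the 66 libraries, time in culture went with changes in more members than any treatment comparison did. The lanes set aside were chosen because many of their libraries lay near other times and replicate numbers. The choice of libraries is therefore not independent of the tests of time and of replicate number, and it favours them. Of the 72 tests of a member over time 34 passed here, against 4 with all libraries and the block. In the controls (PBS and the 3 siRNA groups) CLDN3, TJP3, CGN and OCLN rose from 10 to 24 h, and CLDN2 and CLDN7 fell. That is 6 of 9 members (66.7%) where 33.6% of all genes tested passed. This comparison pools 4 control groups and so holds more libraries than a treatment comparison, and the counts are not at equal power. In PBS alone and in ANC2 alone, with 2 libraries at each time, 3 and 4 members passed. CLDN1, CLDN4 and TJP1 did not pass.

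CLDN3 at 10 h ranged from 9.02 to 21.8 CPM with a median of 14.8 over 32 libraries of all groups. At 24 h it ranged from 17.7 to 40.3 CPM with a median of 29.7 over 26 libraries, and at 48 h from 33.4 to 40.5 CPM with a median of 36.3 over 8. The 10 h and 48 h libraries used did not overlap. Shares of all genes that separate so, or that move the same way in every pair below, are not given here. In the controls the level rose by a log2 fold change of 0.95 ± 0.08 from 10 to 24 h (adjusted p = 1.1e-15), and 25 of 25 pairs of libraries with the same treatment and replicate number were higher at 24 h.

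TJP3, whose product binds claudins through PDZ domains, rose at each step. It ranged from 28.9 to 50.1 CPM (median 37.4) at 10 h, from 50.3 to 85.4 CPM (median 69.2) at 24 h and from 78.9 to 106 CPM (median 93.1) at 48 h. The 10 h libraries used lay below all 24 h libraries used, whereas these times overlapped in the libraries set aside. The share of all genes that separate so is not given here. The log2 fold change in the controls was 0.91 ± 0.05 from 10 to 24 h (adjusted p = 2.1e-25) and 0.36 ± 0.07 from 24 to 48 h (adjusted p = 2.1e-05). CGN rose by 0.41 ± 0.04 and then by 0.24 ± 0.06, with medians of 146, 180 and 225 CPM at the 3 times. OCLN rose by 0.21 ± 0.04 in the earlier interval, with medians of 121, 132 and 134 CPM.

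CLDN2, the pore-forming claudin, went the other way. It ranged from 8.03 to 20.6 CPM (median 13.5) at 10 h, from 0.70 to 10.9 CPM (median 5.76) at 24 h and from 2.33 to 12.3 CPM (median 5.11) at 48 h. The lowest 24 h library had 1 count. In the controls CLDN2 fell by 1.33 ± 0.19 on the log2 scale from 10 to 24 h (adjusted p = 3.1e-07), and it was lower at 24 h in 25 of 25 pairs. CLDN7 fell by 0.30 ± 0.07, from a median of 71.8 to 58.1 CPM, and was lower in 24 of 25 pairs. CLDN1 was lower in 22 of 25 pairs, but its log2 fold change of -0.15 ± 0.07 had an adjusted p of 0.0854.

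**Figure D3:**
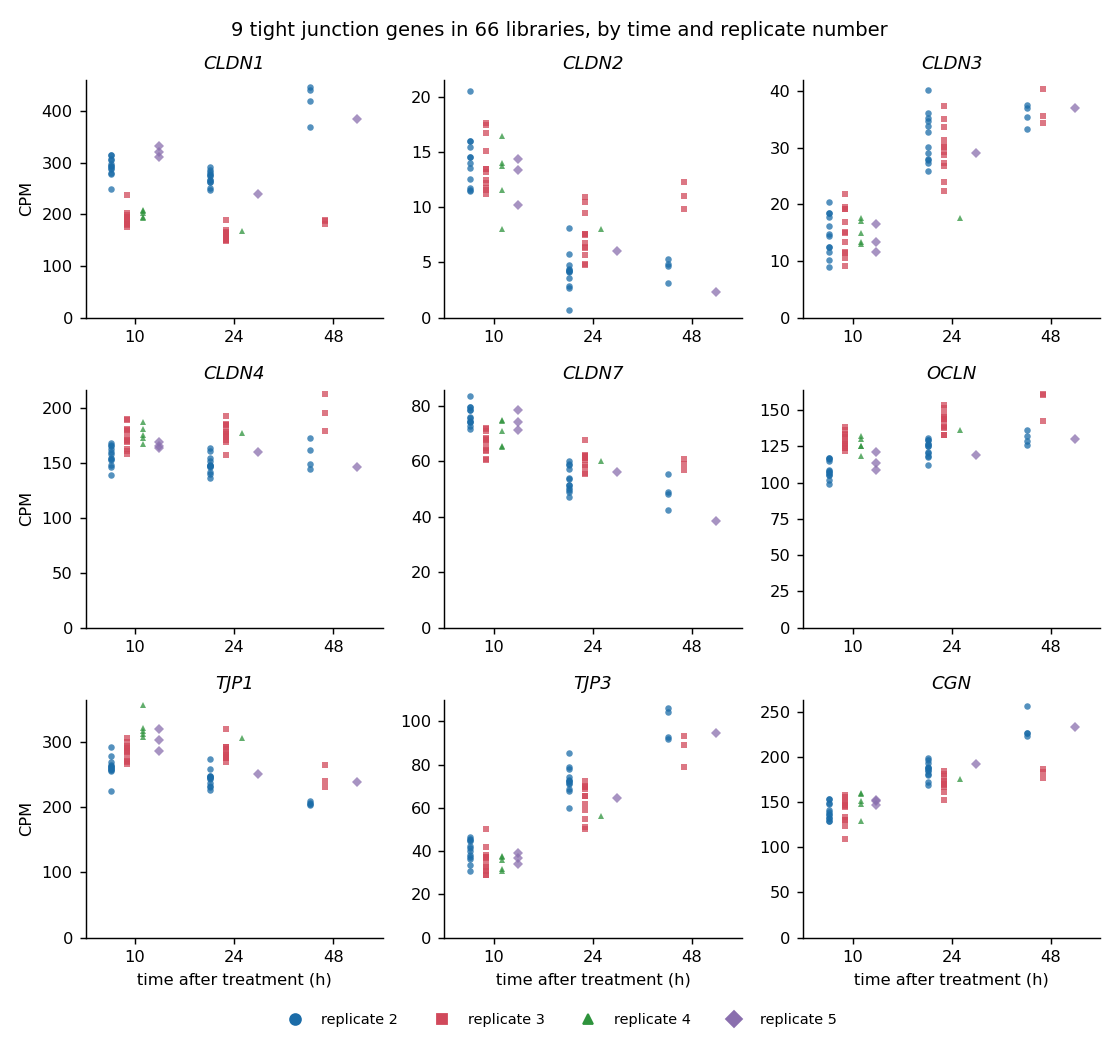
Level in CPM (linear axes from 0) of each of the 9 genes in the 66 libraries at 10, 24 and 48 h, with symbol and colour for the replicate number. The medians of TJP3 and CLDN3 are higher at each later time, CLDN2 drops between 10 and 24 h, and CLDN1 splits into separate bands of replicates 2 and 3.

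TJP3 and CLDN3 also rose in each control taken alone. TJP3 rose by 0.92 in PBS, 1.01 in ANC100, 0.81 in ANC5 and 0.90 in ANC2 from 10 to 24 h. CLDN3 rose by 0.86, 1.24, 1.14 and 0.56 in the same groups. In PBS 6.72% of all genes passed, in ANC100 13.6%, in ANC5 12.2% and in ANC2 6.25%. CLDN2 fell in ANC100 and ANC5, and its values in PBS (-1.07 ± 0.38, adjusted p = 0.087) and ANC2 (-0.96 ± 0.36, adjusted p = 0.116) did not pass. These comparisons share the libraries of the pooled comparison. When 1 library of a control was left out, CLDN3 rose by 0.75 to 0.95 in PBS and by 0.50 to 0.63 in ANC2. Its call in ANC2 was lost in each of these fits, and its call in PBS was lost without PBS replicate 2 at 24 h. TJP3 kept its call in all such fits. With all libraries and the replicate block no member passed in a single control. TJP3 then had log2 fold changes of 0.05 ± 0.27 in PBS, 0.95 ± 0.26 in ANC100, 0.62 ± 0.31 in ANC5 and 0.66 ± 0.29 in ANC2. CLDN3 had 0.03 ± 0.33 in PBS (adjusted p = 1), 1.03 ± 0.32 in ANC100, 0.96 ± 0.39 in ANC5 and 0.38 ± 0.34 in ANC2.

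From 24 to 48 h, in PBS and ANC100 together, TJP3, CGN and CLDN1 rose and TJP1 fell, 4 of 9 members where 28.1% of all genes passed. CLDN1, the highest claudin per kb of merged exons, rose by 0.57 ± 0.10 (adjusted p = 1.8e-05), and TJP1 fell by 0.15 ± 0.05 (adjusted p = 0.0271). In PBS alone CLDN1 rose by 0.69 ± 0.14 where 16.7% of all genes passed. In ANC100 alone it rose by 0.45 ± 0.13 where 14.5% did. PBS at 48 h had no used library of replicate 3. CLDN1 and CGN were lower in replicate 3, by more at 48 h (-1.17 and -0.39) than at 24 h (-0.77 and -0.12). The part of this in the rises in PBS and in the pooled comparison was not tested. Leaving out 1 library gave -0.19 to -0.11 for TJP1 in the pooled comparison, with the call lost in 5 of 8 fits. CLDN1 in ANC100 then ran from 0.14 to 0.68, with the call lost in 3 of 4. The rise of CLDN1 was not even across replicate numbers. Its mean over all groups went from 270 to 419 CPM in replicate 2 and from 160 to 185 CPM in replicate 3. With all libraries and the replicate block 0 of 9 members passed from 24 to 48 h in edgeR. The log2 fold changes were then 0.20 ± 0.14 for CLDN1 (adjusted p = 0.433), 0.24 ± 0.18 for TJP3 (adjusted p = 0.474), 0.19 ± 0.08 for CGN (adjusted p = 0.198) and -0.07 ± 0.06 for TJP1 (adjusted p = 0.583). Markers moved in the same interval in the 66 libraries. KRT8 fell by 1.05 ± 0.13, KRT18 by 1.07 ± 0.15 and LYZ by 0.66 ± 0.15, while KRT20 (1.02 ± 0.39), PECAM1 (0.62 ± 0.20) and COL1A1 (0.46 ± 0.08) rose. The lists did not move as wholes. In ANC100 alone CDH1 rose, unlike KRT8 and KRT18 (0.33 ± 0.07, edgeR adjusted p = 9.9e-05). PDGFRA fell there, unlike COL1A1 (-0.70 ± 0.21, edgeR adjusted p = 0.0136). Their part in the members' changes was not tested.

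With all libraries, those set aside included, and the replicate block, 8.51% of all genes passed from 10 to 24 h in the controls. TJP3 (0.57 ± 0.14), CLDN3 (0.60 ± 0.17) and CLDN2 (-0.78 ± 0.22) passed with smaller changes, as did CGN, while OCLN and CLDN7 did not. In the 39 set-aside libraries the times overlapped. TJP3 had medians of 65.9, 65.4 and 58.0 CPM at 10, 24 and 48 h there, and CLDN3 25.1, 23.4 and 25.6 CPM.

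The make-up of the 5 claudins by CPM per kb of merged exons shifted with time. The sizes of the shares depend on these lengths. In replicate 2 libraries CLDN1 made up 50.3% of their sum at 10 h, 48.4% at 24 h and 58.3% at 48 h. CLDN3 went from 7.17% to 16.2% and 14.3%, and CLDN2 from 2.62% to 0.793% and 0.673%. In replicate 3 libraries CLDN1 made up less, 39.9%, 33.5% and 34.4%, while CLDN3 went from 8.97% to 17.7% and 19.4%. CLDN2 there stood at 3.07%, 1.64% and 2.19%. The CLDN3 share was larger at 24 h than at 10 h in each of these sets, and the CLDN2 share smaller.

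**Figure D4:**
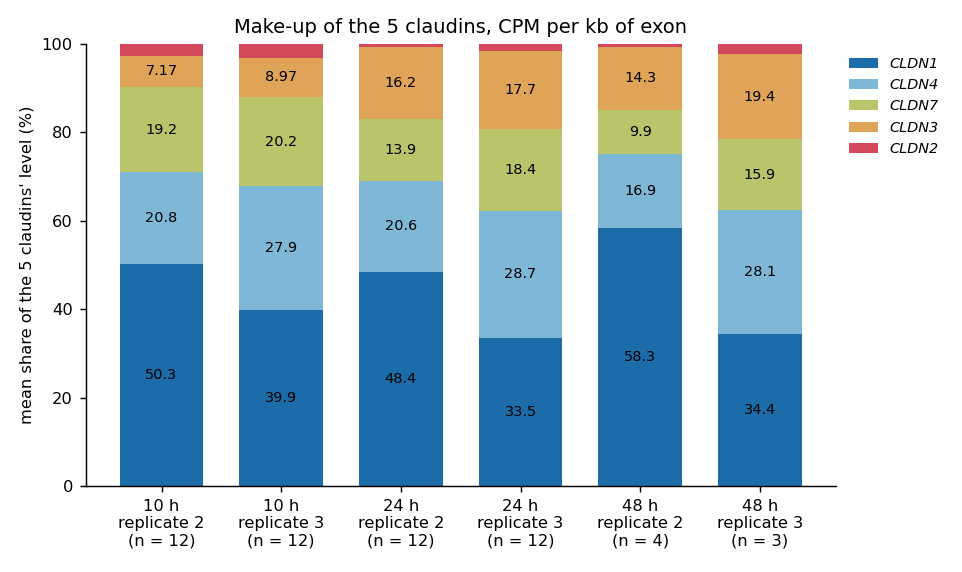
Mean share in percent of each claudin in the summed CPM per kb of the 5 claudins, stacked to 100, by time and replicate number with n libraries per bar. CLDN1 takes 33.5% to 58.3% and is smaller in replicate 3 at each time, and the CLDN3 share is larger at 24 and 48 h than at 10 h. The sizes of the shares depend on the merged exon lengths used.

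The replicate number itself went with large differences. Replicate 3 against replicate 2, over all groups, gave 7 of 9 members (77.8%) past the test, and 61.5% of all genes passed it too. CLDN1 was the member that differed most. It was lower in replicate 3 in 27 of 27 groups that held both, with a median ratio of 0.6 and a log2 fold change of -0.75 ± 0.04 (adjusted p = 2.4e-19). OCLN (0.22 ± 0.02) and CLDN4 (0.22 ± 0.02) were higher in 27 of 27 groups and TJP1 (0.17 ± 0.02) in 26 of 27. CLDN2 was higher by 0.31 ± 0.10, and TJP3 (-0.19 ± 0.03) and CGN (-0.10 ± 0.03) were lower. With all libraries 5 of 9 members passed, with -0.75 ± 0.08 for CLDN1, while TJP3 (-0.20 ± 0.10, adjusted p = 0.0844) and CGN (-0.10 ± 0.04, adjusted p = 0.0513) did not. The share of all genes with the same direction in every group is not given here. The labels do not say what a replicate number stands for.

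Several of these differences were larger at the later times. Only 24 h against 10 h was tested as a difference. At 48 h 3 groups held both replicates, against 12 at 10 h and 12 at 24 h, so the treatments differ. CLDN1 in replicate 3 was lower by a log2 fold change of -0.60 at 10 h, -0.77 at 24 h and -1.17 at 48 h. CLDN2 had -0.05 (adjusted p = 0.666) at 10 h, 0.71 at 24 h and 1.11 at 48 h. CLDN7 changed direction, from -0.19 at 10 h to 0.17 at 24 h and 0.26 at 48 h, each past the test. CGN had 0.01 (adjusted p = 0.783), -0.12 and -0.39. Of all genes tested, 49.2% passed at 10 h, 52.2% at 24 h and 35.8% at 48 h. The difference at 24 h minus that at 10 h passed in 4 of 9 members and in 13.9% of all genes. LYZ was higher in replicate 3 by 4.13 ± 0.04 on the log2 scale, PDGFRA by 1.51 ± 0.06 and KRT20 by 2.34 ± 0.13, and their part in the members' differences was not tested.

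**Figure D5:**
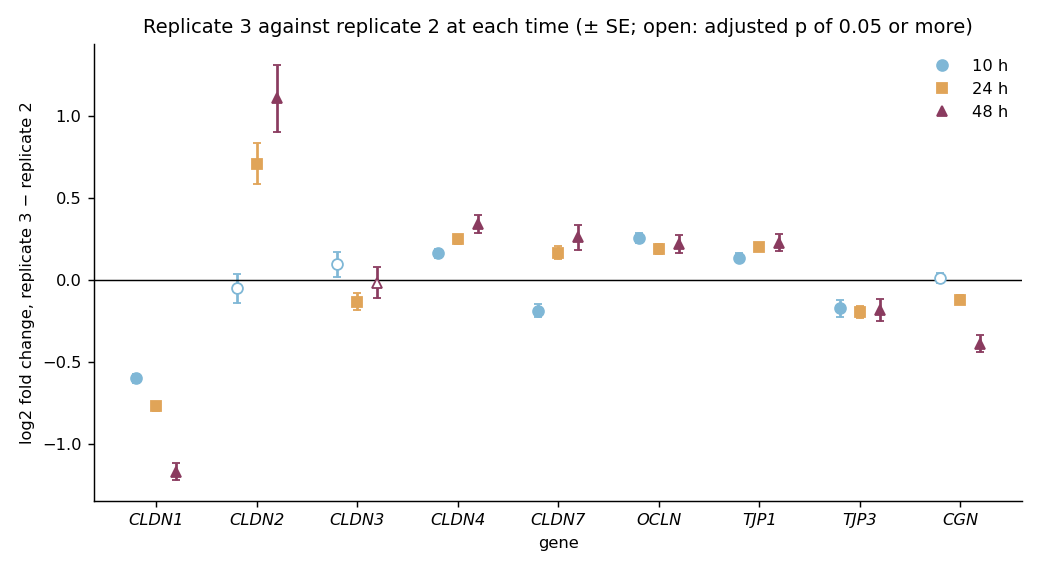
Log2 fold change ± SE of replicate 3 against replicate 2 for each of the 9 genes at 10, 24 and 48 h, with filled symbols where the edgeR adjusted p was under 0.05. CLDN1 moves further below 0 from 10 to 48 h and CLDN2 further above it.

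Of the variation in log2 level over the 66 libraries, time took 88.0% for TJP3, 79.8% for CLDN3, 74.9% for CGN, 66% for CLDN7 and 59.5% for CLDN2. Replicate number took 74.9% for CLDN1, 58.8% for CLDN4 and 50.6% for OCLN. For TJP1 time took 40.2% and replicate number 39.7%. The groups beyond time took between 2.53% (CLDN1) and 16.1% (CLDN2). These shares are a description, with no test, in libraries whose choice drew on time and replicate number.

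The levels of TJP3 and CLDN3 went together over the 66 libraries (r = 0.888), as did those of TJP3 and CGN (r = 0.857) and of CLDN2 and CLDN7 (r = 0.802). The libraries share times and replicate numbers. With the group and replicate means removed the value for TJP3 and CLDN3 was near 0 (-0.005), TJP3 with CGN had -0.241 and CLDN2 with CLDN7 had 0.609. Differences between replicates that change with time stay in these values, and CLDN2 and CLDN7 both had one, in the same direction. Among 10656 or more genes with a mean of at least 10 CPM, the pattern most like that of CLDN1 was that of PROM1 (r = 0.956, 66 libraries), then MET and PCSK5. CLDN3 was most like DHRS3 (0.940), TJP3 like PDCD4 (0.953), CGN like ERBB3 (0.927) and CLDN7 like MCM3 (0.905). CLDN2 was most like ANKLE1 (0.887), TJP1 like MAP4K4 (0.875) and CLDN4 like LTBP1 (0.810).

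Other tight junction genes were counted as lists, 17 membrane proteins tested of 31 listed and 21 scaffold and polarity proteins tested of 23. In PmOMV against PBS at 10 h 1 of these 38 rose and 1 fell. PARD3, a polarity scaffold, rose by 0.31 ± 0.08 and AMOT, an angiomotin that binds junction scaffolds, fell by 0.42 ± 0.11. Against LPSinc PARD3 rose by 0.30 ± 0.07, and PARD3B (-0.47 ± 0.14) and HEPACAM2 (-1.62 ± 0.45) were lower. Against EfMV 0 of 38 passed in edgeR. The median log2 fold change of the 38 was -0.04 against PBS and -0.03 against LPSinc. In LcMV against PBS at 48 h YBX3, a ZO-1 partner, rose by 0.84 ± 0.19, while HEPACAM2 fell by 1.31 ± 0.31, in the comparison with no PBS replicate 3. Both were named after their values were seen. HEPACAM2 differed between replicates 3 and 2 by -1.51 ± 0.11.

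Of 12 transcription factors tested that are known to act on junction genes, 4 passed in PmOMV against LPSinc at 10 h, where 3.15% of all genes did. EHF, an epithelial ETS factor, rose by 1.88 ± 0.40 at a low level, with a median of 1.71 CPM over the 66 libraries. HNF4A (-0.32 ± 0.07), KLF5 (-0.44 ± 0.10) and GRHL1 (-0.66 ± 0.18) were lower. Against PBS 1 of the 12 passed, EHF (1.82 ± 0.44), where 1.09% of all genes did. CTNNB1, the catenin of adherens junctions, was higher by 0.34 ± 0.07, and the other 8 adherens junction genes tested and all 18 regulators tested, among them MYLK and RHOA, did not pass. EHF, HNF4A, CTNNB1 and HEPACAM2 were known from earlier results of these data to move.

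With time the other junction genes moved in both directions. From 10 to 24 h in the controls 10 of 38 rose and 6 fell (42.1%), with a median of 0.05, where 33.6% of all genes passed. CLDN19 rose by 1.26 ± 0.18 and HEPACAM2 by 1.25 ± 0.19, whereas PARD6G fell by 1.35 ± 0.26 and BVES by 0.37 ± 0.11. Their levels were low, with medians over the 66 libraries of 3.10, 8.05, 2.02 and 9.42 CPM in the same order. Among the transcription factors 4 of 12 rose, CDX2 (0.39 ± 0.05) and HNF4A (0.28 ± 0.04) among them, and 3 fell, against the same 33.6% of all genes. CDH1, the E-cadherin gene, rose by 0.26 ± 0.03. From 24 to 48 h 7 of 38 rose and 1 fell (21.1%), where 28.1% of all genes passed. COL1A1 rose by 0.99 ± 0.07 from 10 to 24 h as well, and KRT18 fell by 0.45 ± 0.10 from 10 to 24 h. Their part in the members' changes was not tested.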

How the data were processed

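Total RNA of Caco-2 cells (ribosomal RNA depleted, paired-end reads on a DNBSEQ-G400) was counted per gene. The table deposited by the authors holds raw counts of 63241 genes in 105 libraries, which the authors made with STAR on GRCh38 and featureCounts through snakePipes, with sambamba marking duplicates, and no strand setting is listed. Symbols came from a table of gene IDs (62030 matched exactly, 62666 without the version). No column was left unused.

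From these counts, libraries were grouped by the treatment and time in their labels, and flow cell and lane were read from the library names. The labels do not say what a replicate number stands for, so p-values measure only the spread between these libraries, which may be technical. The 39 libraries of lanes 2 to 4 of flow cell 1 were set aside. In edgeR 4.0.16 (R 4.3.3), filterByExpr kept 19233 genes, sizes were scaled by TMM, and 28 groups with the replicate number as an additive block entered 1 quasi-likelihood fit (trended dispersion, robust, 31 columns, biological coefficient of variation 0.062) with two-sided F tests. Benjamini-Hochberg adjustment ran over all genes within each of 51 contrasts, and an adjusted p under 0.05 passed. A standard error was taken as the size of the log2 fold change divided by the root of its F value. Same-numbered libraries deviated together: the correlation of their deviations from the group means was above 0.1 for every pair in 32 of 32 comparisons of groups (0.20 to 0.683), against 13 of 35 with all 105 libraries. The scripts were tested on simulated counts. CPM used TMM over all 105 libraries, and a prior count of 3 for log2 levels. Used libraries held 632659 to 8558755 counts (median 5563438); the fewest counts lay behind CLDN2 and CLDN3. No pair of libraries held identical values.

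The members and gene lists were chosen with earlier results of these data known, and so were the block and the lanes set aside. All 9 members are named. Other genes of the lists are named where they pass in a comparison that a member passes, or as the 2 highest or 2 lowest of their list there, and genes outside the lists as the 3 with the highest Pearson r with a member. The test of replicate 3 against replicate 2 within each time was added after seeing the data. Alternatives were all 105 libraries, no block, the block within each time, RLE size factors, all genes with at least 1 count (44757), no robust option, flow cell and lane as covariates, replicates 2 and 3 only, libraries of at least 1500000 counts, DESeq2 1.42.0 and leaving out each library. Promoter windows are from RefSeq. Protein sequences of the members were not used here. Some results for genes outside the 9 members are not reported here.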

Additional observations from a re-analysis of the deposited data

Results flagged for a closer look

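The difference between replicate 3 and replicate 2 was tested within each time, an alternative chosen after seeing the data, and 4 of the 9 genes were picked out because that difference at 24 h and at 10 h was itself different (edgeR, replicate block within each time, adjusted over all genes). For CLDN2, the pore-forming claudin, the difference at 24 h minus that at 10 h was 0.76 ± 0.15 on the log2 scale (adjusted p = 6.7e-05), with replicate 3 higher in 4 of 12 groups at 10 h and in 12 of 12 at 24 h. For CLDN7 it was 0.36 ± 0.06 (adjusted p = 1.7e-07), with replicate 3 higher in 0 of 12 groups at 10 h and in 11 of 12 at 24 h. For CLDN1 it was -0.17 ± 0.04 (adjusted p = 0.000596), and for CGN -0.13 ± 0.04 (adjusted p = 0.0138), with replicate 3 lower in 12 of 12 and 11 of 12 groups at 24 h. Over all genes tested, 13.9% showed such a difference. Of 18 tests for a single library far from the others of its group, run for the 9 genes in the 2 groups of 4 libraries, 0 picked one out.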

How the results depend on the processing

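The counts of members past the test depended on which libraries entered and on the replicate block. In vesicles against PBS 1 of 63 tests passed, and 0 did with all libraries (with or without the block) or with no block, 2 with flow cell and lane, 3 with all genes of at least 1 count, 4 with the block within each time and 4 in DESeq2. P. mirabilis against LPS gave 2, and 0 with all libraries with or without the block, 1 with no block and 4 with the block within each time. Vesicles of different species gave 1, and 0 with all libraries with or without the block, 0 with no block, 2 with all genes of at least 1 count, 2 with flow cell and lane and 5 with the block within each time. Time in the controls gave 34, and 20 with no block, 4 with all libraries and the block and 0 with all libraries and no block. Differences of effects gave 0, and 1 with flow cell and lane and 3 with the block within each time. The cause of these changes was not tested.

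In the fit with the block within each time, group levels refer to replicate 2, so its comparisons of times are those of replicate 2, and PBS at 48 h rests on 1 library there. Of 45 values of members that passed, 45 kept direction and call under RLE factors, the block within each time, flow cell and lane, and DESeq2. With all libraries and the block 9 did and 35 no longer passed. CGN in PBS from 10 to 24 h, at 0.29, was -0.0215 with all libraries and the block and -0.0188 with all libraries and no block. Leaving out 1 library gave 0 to 1 for vesicles, 0 to 0 for vesicle RNA, LPS and siRNA, 2 to 2 for P. mirabilis against LPS, 0 to 1 for species and 29 to 36 for time. These fits kept the gene filter, scaling and dispersion trend of all 66 libraries, and were not run for differences of effects or for replicate 3 against replicate 2.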
